A study of Homo sapiens with 6 samples.

Results

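The tetraspanin family was taken as the protein-coding genes whose symbol is TSPAN with a number, or CD9, CD37, CD53, CD63, CD81, CD82 or CD151, which gave 29 of the 60616 genes in the files. Their mRNA was measured by sequencing in 12Z cells, an immortalized human line from endometriotic lesions, of wild-type genotype, used as a model of endometriosis, in which tissue like the womb lining grows elsewhere in the body. The treated group was 3 libraries of cells given frankincense extract, a preparation of Boswellia resin, at 70 ug/mL in DMSO for 12 h, and its control 3 libraries of cells given DMSO as vehicle. All cells grew in DMEM/F12 medium with 10% charcoal-stripped serum, and each library was made from 1.5 ug of total RNA. All libraries come from 1 cell line, and separate cultures are not stated for the replicates; the p-values therefore speak to variation among these samples alone, and that variation may be technical.

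Tetraspanins are small membrane proteins that cross the membrane 4 times and carry a small and a large extracellular loop. They have few ligands of their own. They bind integrins, immunoglobulin-domain proteins, proteases and each other, and so arrange these partners in membrane microdomains, escort some of them to the cell surface, and enter multivesicular bodies and exosomes. In epithelial and stromal cells they are known for their part in adhesion to laminin, migration, membrane fusion and the shedding of membrane proteins.

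After frankincense the family moved in both directions, with more members lower than higher in the count test, although on log2(TPM + 1) 6 were called higher and 4 lower. Of the 29 members, 22 had enough reads to be tested. Of these, 16 were called, meaning a Benjamini-Hochberg adjusted p under 0.05 in the quasi-likelihood test of edgeR, with the adjustment over all 16719 genes tested. Of all genes tested, 62.9% were called (67.7% of the protein-coding ones), so a call alone was common in this experiment. Among the tested members 12 were lower and 4 higher, or 54.5% and 18.2% of 22, beside 31.0% lower and 31.9% higher of all genes tested and 32.0% lower and 35.7% higher of the protein-coding ones. A call with an absolute log2 fold change of at least 0.5 was met by 5 members in the lower and 2 in the higher direction, beside 17.2% and 16.4% of all genes tested. The median log2 fold change was -0.18 for the 22 members and -0.0016 for all genes tested. TSPAN8, a tetraspanin of migrating epithelial and carcinoma cells, had the largest change of the 22 and fell by 4.18 ± 0.16 on the log2 scale (SE). TSPAN15, CD9 and CD37 were also lower, and TSPAN31, TSPAN13 and CD63 higher, and these 7 kept their call and direction in every alternative analysis that tested them. CD37 had only 6 to 12 reads in a frankincense library and passed the filter on low counts through the vehicle group, where it is high. Its call therefore carries less weight than those of members with more reads. TSPAN31 shares 25.4% of its exonic bases with CDK4, a gene on the other strand that was also higher. No label says that the libraries kept strand, and the part of CDK4 in the TSPAN31 result was not tested. The other 9 called members lost the call or the direction in at least 1 alternative.

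The libraries held 22615150 to 27615196 expected counts, the read numbers that the program RSEM estimates for each gene. A count of 3 in 1 library corresponded to 0.109 to 0.133 CPM, the reads of a gene scaled to library size, and such a floor covers counting error alone. Levels are given below in TPM, a share of all transcripts that accounts for transcript length and so allows genes to be compared. Differences are log2 fold changes of counts, frankincense over vehicle, after TMM scaling, which sets the bulk of genes equal between libraries. Transcripts of the mitochondrial genome took 16.3% to 17.9% of TPM in frankincense libraries and 26.6% to 27.1% in vehicle libraries, so that the TPM of other genes is raised by frankincense relative to the count scale. Frankincense replicate 3 stood apart from the other treated libraries in a chi-square comparison of counts, at 15.2 and 13.2 per degree of freedom against 4.39 between the other pair and 4.07 to 4.70 between vehicle libraries. Fewer cells with an mRNA and less of it per cell cannot be told apart in such bulk samples. The epithelial keratins KRT8 and KRT18 averaged 684 and 582 TPM in frankincense cells and 771 and 661 TPM in vehicle cells, while CDH1, the epithelial E-cadherin, was below the filter on low counts. The stromal markers VIM and COL1A1 averaged 1969 and 699 TPM in frankincense cells and 2048 and 1444 TPM in vehicle cells. Of the 7 epithelial markers 6 were tested, 4 lower and 2 higher, with a summed level of 1379 to 1431 TPM in frankincense libraries and 1604 to 1640 TPM in vehicle libraries; of 7 stromal markers 6 were lower and 1 higher, with sums of 2824 to 3013 TPM in frankincense libraries and 3891 to 3971 TPM in vehicle libraries. Their part in the results below was not tested.

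The tetraspanin mRNA of these cells was dominated by a handful of genes. CD63, CD151, TSPAN3, CD81 and CD9 were the 5 most abundant members, and together they held 86.3% of the summed TPM of the family in frankincense cells and 85.0% in vehicle cells. CD63 alone held 52.2% ± 1.23 in frankincense cells and 43.5% ± 0.621 in vehicle cells (SD, n = 3 each). CD151 and TSPAN3, next in order, averaged 219.7 ± 20.2 and 209 ± 11.8 TPM in frankincense cells and 209 ± 0.73 and 206 ± 6.38 TPM in vehicle cells, so their order did not exceed the spread between libraries. CD9 held 5.37% of the sum in frankincense cells and 8.24% in vehicle cells. In all, 15 members averaged above 10 TPM. In each frankincense library 19 members reached 1 TPM and in each vehicle library 20, the difference being TSPAN8. The summed TPM of the family was 2041, 1923 and 2250 in frankincense libraries against 1808, 1757 and 1790 in vehicle libraries. When TPM was rescaled without mitochondrial transcripts the sums were 2485, 2296 and 2697 in frankincense libraries against 2479, 2410 and 2439 in vehicle libraries, and the groups overlapped.

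**Figure D1:**
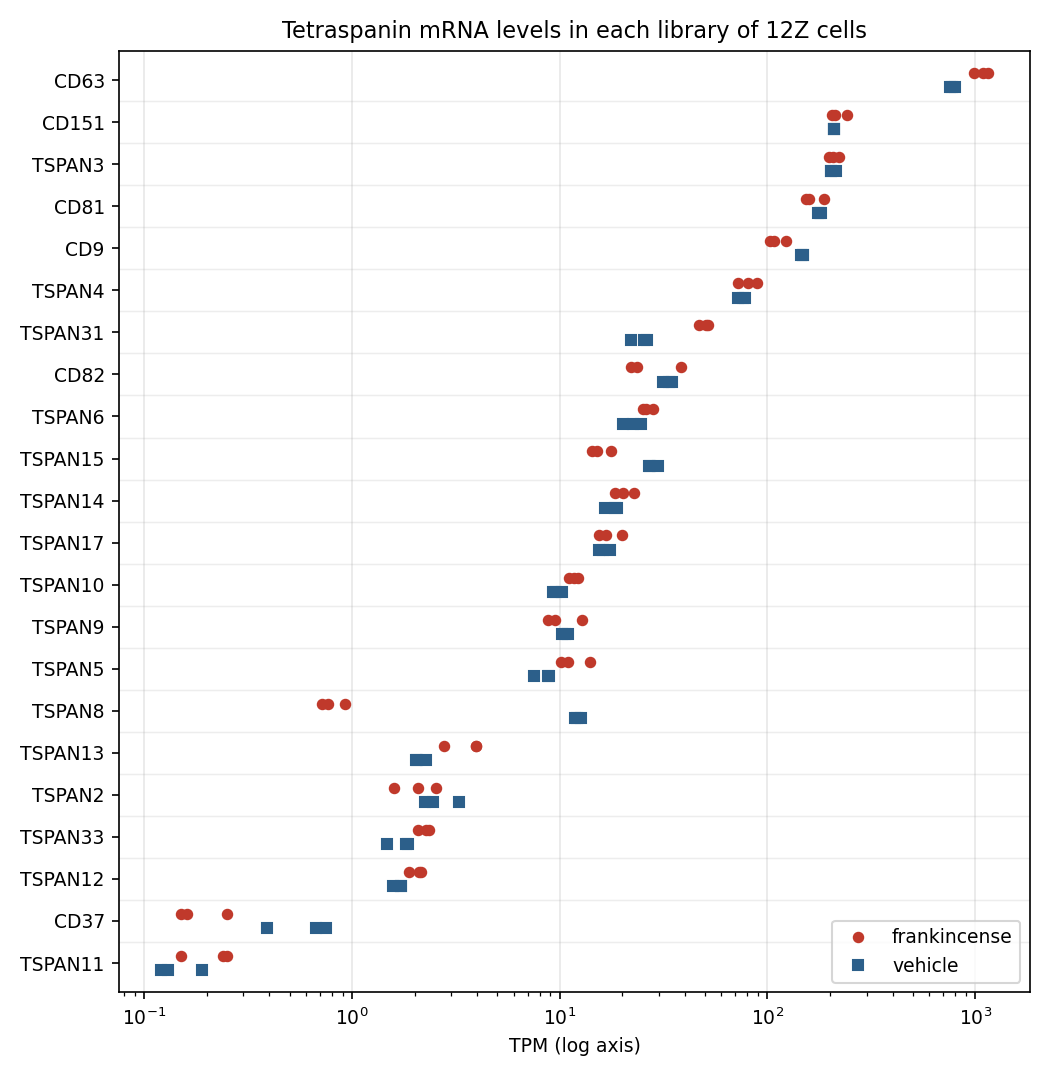
TPM of the 22 tested tetraspanins (log axis) in each library, with frankincense libraries as red circles above vehicle libraries as blue squares. Levels ran from CD63, at 991 to 1158 TPM in frankincense libraries, to TSPAN11 and CD37 below 1 TPM, and TSPAN8 is the gene whose groups lie farthest apart.

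Of the tetraspanins that bind integrins and immunoglobulin-domain partners or mark exosomes, 7 of 8 were lower and 1, CD63, was higher, beside 31.0% lower and 31.9% higher of all genes tested. Their median log2 fold change was -0.38. Lists and rules were chosen with earlier results of these data known, so this share is a description of the group alone. Of the 7, CD151 and TSPAN4 turned positive on log2(TPM + 1), CD81, CD82 and TSPAN9 lost their call, and TSPAN8 and CD9 kept it. Without mitochondrial genes on that scale CD151, TSPAN4 and TSPAN9 were still not called, and CD81 and CD82 were called lower. TSPAN8 (ENSG00000127324, GRCh38 chromosome 12, 71125085 to 71441898, minus strand) associates with integrins and EPCAM and is known from carcinomas of the gut. It had 0.72, 0.93 and 0.77 TPM in frankincense libraries against 11.8, 12.6 and 12.1 TPM in vehicle libraries. The groups were far apart, and the treated libraries held 13, 15 and 12 reads of the gene against 210, 275 and 252 in the vehicle libraries. This was an 18.1-fold lower level in the count test (log2 fold change -4.18 ± 0.16, SE; edgeR adjusted p = 3.1e-11).

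CD9 (ENSG00000010278, chromosome 12, 6199715 to 6238271) acts in cell fusion and adhesion and binds the immunoglobulin-domain proteins PTGFRN and IGSF8. Its level was 107, 103 and 123 TPM in frankincense libraries against 148.5, 145 and 147 TPM in vehicle libraries, with every treated library below every vehicle library. It fell by 0.63 ± 0.050 on the log2 scale (SE; edgeR adjusted p = 5.9e-08), or 1.54-fold. CD81 (ENSG00000110651, chromosome 11, 2376177 to 2397419), the close relative of CD9 and an entry factor of hepatitis C virus, had 154, 158.8 and 186 TPM in frankincense libraries against 175, 179 and 180.5 TPM in vehicle libraries. These values overlap, since frankincense replicate 3 lies above the vehicle libraries. On the scale of the test they did not, with 146, 144 and 155 CPM in frankincense libraries against 185, 192 and 185 CPM in vehicle libraries, a log2 fold change of -0.34 ± 0.053 (SE; edgeR adjusted p = 6.1e-05).

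CD82 (ENSG00000085117, chromosome 11, 44564427 to 44620363), known as a suppressor of metastasis, differed between treated libraries. It had 21.99, 23.6 and 38.2 TPM in frankincense libraries against 31.5, 34.6 and 33.6 TPM in vehicle libraries. Frankincense replicate 3 was above the vehicle libraries in TPM, and in CPM, at 28.9 in that library, 19.4 and 22.1 in the other treated libraries and 32.9 to 36.1 in vehicle libraries, it was the nearest to them. The log2 fold change was -0.54 ± 0.13 (SE; edgeR adjusted p = 0.0051), and -0.71 without frankincense replicate 3 (adjusted p = 9.1e-09).

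CD151 (ENSG00000177697, chromosome 11, 832843 to 839831) stabilizes the laminin-binding integrins at the membrane. Its TPM was 211, 205 and 243 in frankincense libraries against 209, 208 and 208 in vehicle libraries, which overlap. Its scaled counts were 205, 194 and 209 CPM in frankincense libraries against 228, 234 and 226 CPM in vehicle libraries, and it was called lower at -0.18 ± 0.054 (SE; edgeR adjusted p = 0.0098). The call was lost without frankincense replicate 2 (adjusted p = 0.0577) and with library size scaling (adjusted p = 0.120). It was also lost on log2(TPM + 1) without mitochondrial genes, where CD151 was at -0.11 (limma adjusted p = 0.185). Of its exonic bases 6.53% lie opposite POLR2L, an RNA polymerase subunit gene that was itself lower by 1.14 ± 0.067, and no label says that the libraries kept strand. The part of POLR2L in the CD151 result was not tested.

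TSPAN4 and TSPAN9 had small falls. TSPAN4 (ENSG00000214063, chromosome 11, 842808 to 867116), which builds migrasomes on the retraction fibres of moving cells, had 80.6, 72.0 and 89.0 TPM in frankincense libraries against 76.3, 78.1 and 72.4 TPM in vehicle libraries. In scaled counts it had 61.3, 57.1 and 61.2 CPM in frankincense libraries against 68.9, 70.9 and 65.5 CPM in vehicle libraries, and its log2 fold change was -0.19 ± 0.055 (SE; edgeR adjusted p = 0.0073). With library size scaling and with a length offset the adjusted p was 0.0860 and 0.0683. On log2(TPM + 1) without mitochondrial genes TSPAN4 was at -0.098 and not called (limma adjusted p = 0.338). TSPAN9 (ENSG00000011105, chromosome 12, 3077355 to 3286564), best known from platelets, had 9.51, 8.76 and 12.8 TPM in frankincense libraries against 10.7, 10.3 and 11.0 TPM in vehicle libraries. The groups overlap in TPM and were apart in CPM, at 25.1, 25.5 and 28.9 in frankincense libraries against 35.6, 35.5 and 35.7 in vehicle libraries, for a log2 fold change of -0.43 ± 0.067 (SE; edgeR adjusted p = 6.1e-05). TSPAN9 lost this call on log2(TPM + 1), both with and without mitochondrial genes.

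CD63 (ENSG00000135404, chromosome 12, 55725323 to 55729707, minus strand), the tetraspanin of lysosomes, multivesicular bodies and exosomes, was the exception in this group. It had 1094, 991 and 1158 TPM in frankincense libraries against 799.7, 759 and 771 TPM in vehicle libraries. All treated libraries were above all vehicle libraries, and CD63 rose by 0.23 ± 0.060 in the count test (SE; edgeR adjusted p = 0.0035). The change was 0.47 on log2(TPM + 1) and 0.29 after mitochondrial genes were removed from that scale, so its size depended on the scale and its direction did not.

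**Figure D2:**
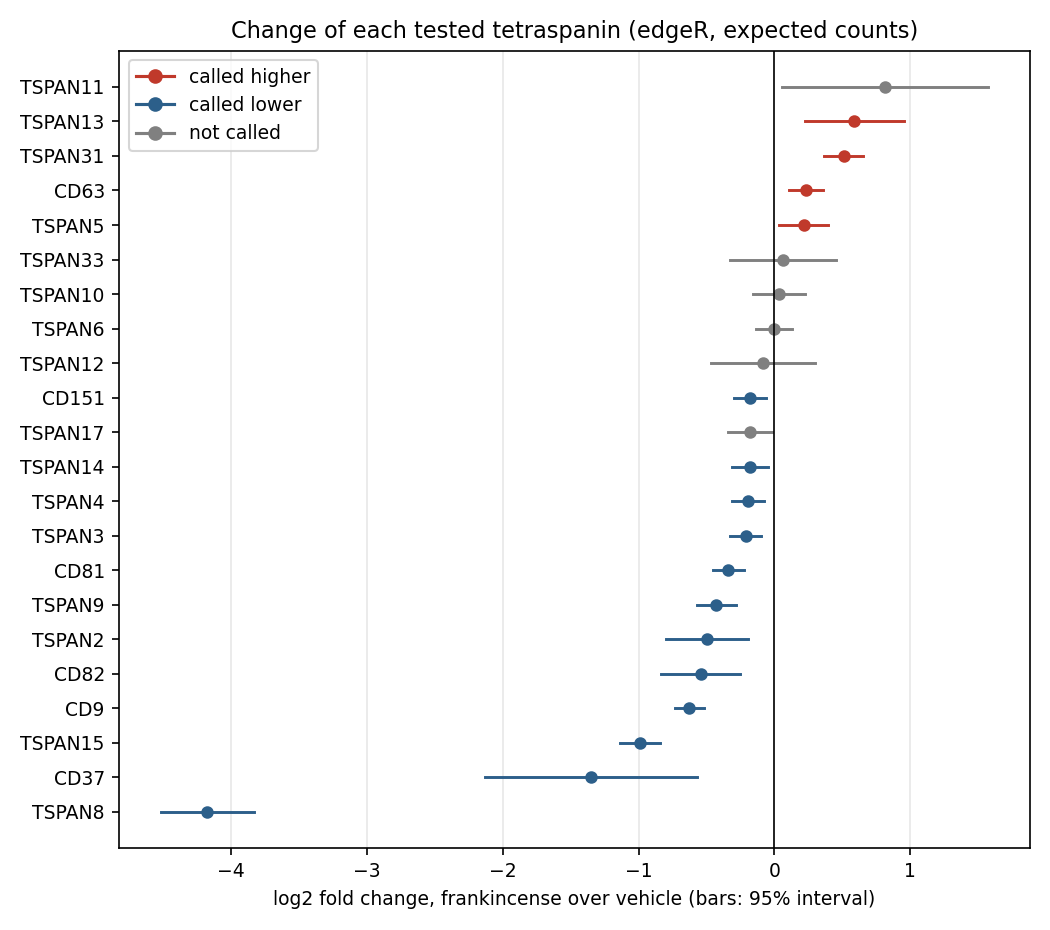
Log2 fold change of each tested tetraspanin, frankincense over vehicle, with 95% intervals from edgeR; red genes were called higher, blue genes lower and grey genes not called. TSPAN8, at -4.18, lies apart from the others, which range from -1.35 for CD37 to 0.82 for TSPAN11.

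Members of the TspanC8 group, which have 8 cysteines in the large loop, bind the metalloprotease ADAM10, carry it out of the endoplasmic reticulum and steer which proteins it sheds. All 6 were tested, and 2 were lower, 1 higher and 3 not called, shares close to or below the 31.0% lower and 31.9% higher of all genes tested, with TSPAN14, 1 of the lower genes, at 0.18 on log2(TPM + 1). ADAM10 itself was lower by 0.20 ± 0.061 on the log2 count scale (SE; edgeR adjusted p = 0.0100), while in TPM it averaged 42.3 TPM in frankincense cells and 40.3 TPM in vehicle cells. TSPAN15 (ENSG00000099282, chromosome 10, 69451473 to 69507669), which directs ADAM10 to N-cadherin, changed the most of the 6. Its level was 14.3, 15.2 and 17.7 TPM in frankincense libraries against 29.8, 26.9 and 27.1 TPM in vehicle libraries, with no overlap, and it fell by 0.99 ± 0.068 (SE; edgeR adjusted p = 1.4e-08), a 1.99-fold lower level. The mean effective length of its transcripts was 1485 ± 29.4 bases in frankincense libraries and 1402 ± 10.1 bases in vehicle libraries (SD, n = 3 each).

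The other TspanC8 genes moved little. TSPAN14 had 18.5, 20.1 and 22.8 TPM in frankincense libraries against 18.8, 16.5 and 18.4 TPM in vehicle libraries, which overlap, and was called lower at -0.18 ± 0.062 (SE; edgeR adjusted p = 0.0193). With a length offset the change was -0.061 (adjusted p = 0.520), with library size scaling -0.11 (adjusted p = 0.171) and in DESeq2 -0.17 (adjusted p = 0.0662). The call was also lost without frankincense replicate 1 or 2 or vehicle replicate 1 or 3, at changes of -0.16, -0.16, -0.18 and -0.15 (adjusted p = 0.0648, 0.0640, 0.0576 and 0.0824). TSPAN5 had 11.0, 10.2 and 13.9 TPM in frankincense libraries against 8.87, 7.55 and 8.74 TPM in vehicle libraries. In scaled counts the groups overlap. It was called higher at 0.22 ± 0.084 (SE; edgeR adjusted p = 0.0357), and the call was lost without frankincense replicate 1 or 3 or vehicle replicate 2 or 3, at changes of 0.23, 0.15, 0.16 and 0.22 (adjusted p = 0.0597, 0.0891, 0.178 and 0.0820). With all libraries it was also lost with a length offset, in DESeq2, with upper-quartile scaling, at 5 CPM and without mitochondrial genes on log2(TPM + 1) (adjusted p = 0.0802, 0.0798, 0.0914, 0.0629 and 0.0926).

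TSPAN17, TSPAN10 and TSPAN33 did not pass the test. TSPAN17 had 15.5, 16.7 and 20.0 TPM in frankincense libraries against 17.4, 16.2 and 15.4 TPM in vehicle libraries and a log2 fold change of -0.18 (95% interval -0.34 to -0.017; edgeR adjusted p = 0.0519). It was called lower without frankincense replicate 3 or vehicle replicate 3 (adjusted p = 0.0074 and 0.0195), and with median-of-ratios or upper-quartile scaling, without a filter and at 5 CPM (adjusted p = 0.0492, 0.0214, 0.0442 and 0.0287). TSPAN10, known from pigment cells, had 12.2, 11.7 and 11.1 TPM in frankincense libraries against 9.62, 9.33 and 10.3 TPM in vehicle libraries, and its log2 fold change of 0.036 had an interval of -0.16 to 0.23. TSPAN33, known from activated B cells, was low at 2.07, 2.36 and 2.26 TPM in frankincense libraries against 1.82, 1.48 and 1.86 TPM in vehicle libraries, with a log2 fold change of 0.064 (interval -0.33 to 0.46). For TSPAN10 and TSPAN33 the TPM groups do not overlap, while the scaled counts do, and the edgeR adjusted p was 0.743 and 0.779.

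Of 9 signalling and trafficking tetraspanins 6 were tested, and 2 were higher, 2 lower and 2 not called, which is close to the 31.9% higher and 31.0% lower of all genes tested. TSPAN31 (ENSG00000135452, chromosome 12, 57738013 to 57750211), a gene co-amplified with CDK4 in sarcomas, had 47.0, 50.7 and 51.8 TPM in frankincense libraries against 25.3, 22.1 and 26.3 TPM in vehicle libraries. The groups are well apart and the TPM change is larger than that of reads: 31.1, 34.3 and 34.8 CPM in frankincense libraries against 23.8, 22.6 and 24.0 CPM in vehicle libraries, a rise of 0.51 ± 0.067 on the log2 scale (SE; edgeR adjusted p = 1.1e-05). RSEM's effective length of the gene was 898, 928 and 1003 bases in frankincense libraries against 1124, 1189 and 1100 bases in vehicle libraries, so the reads were assigned to shorter transcripts after treatment. With effective length as an offset the rise was 0.77, and on log2(TPM + 1) it was 0.99. The gene runs opposite CDK4, the G1 cyclin-dependent kinase, and 25.4% of its exonic bases are shared with CDK4 exons on the other strand. CDK4 had 191, 198 and 223 TPM in frankincense libraries against 136, 128 and 147 TPM in vehicle libraries and was higher by 0.31 ± 0.052 (SE; edgeR adjusted p = 0.00012). CDK4 is the more abundant of the pair, and without strand the reads of the shared stretch cannot be told apart. Its part in the TSPAN31 result was not tested.

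**Figure D3:**
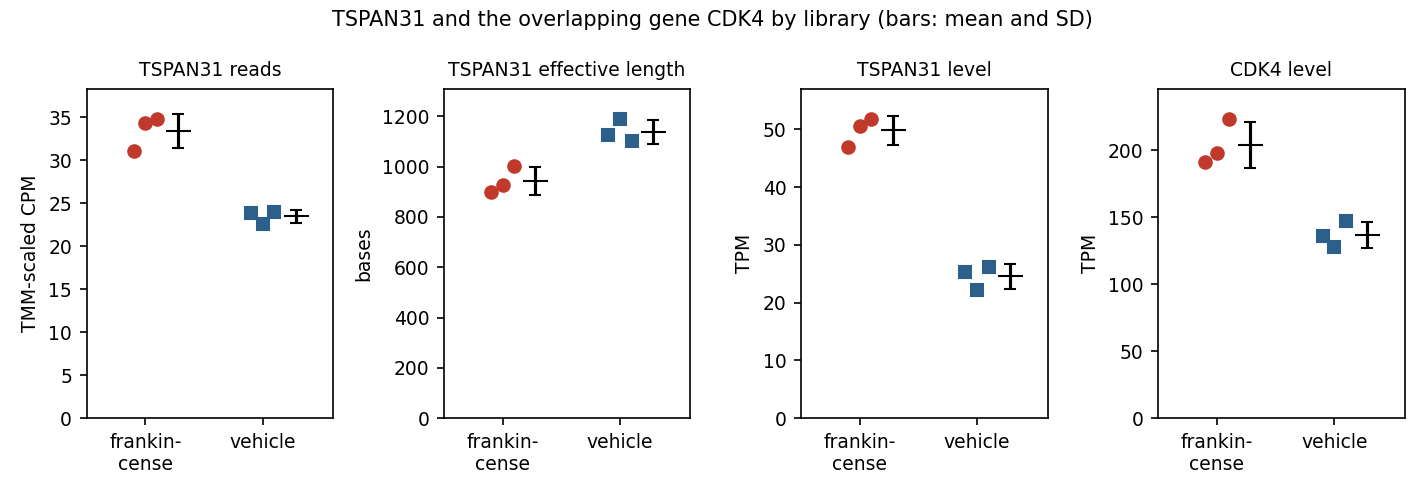
Scaled reads (CPM), effective length (bases) and level (TPM) of TSPAN31, and the level of CDK4 (TPM), in frankincense libraries (red circles) and vehicle libraries (blue squares), with mean and SD beside them. The effective length that RSEM gave TSPAN31 is shorter and its reads are more numerous in all 3 frankincense libraries, and CDK4 is higher in the same libraries.

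TSPAN13 (ENSG00000106537, chromosome 7, 16753535 to 16784536), which can bind voltage-gated calcium channels, had 3.94, 2.76 and 3.97 TPM in frankincense libraries against 2.26, 2.04 and 2.05 TPM in vehicle libraries. The groups did not overlap at this low level, and it rose by 0.59 ± 0.17 (SE; edgeR adjusted p = 0.0077). TSPAN3 (ENSG00000140391, chromosome 15, 77041404 to 77083984), a widely expressed member, had 206, 199 and 222 TPM in frankincense libraries against 203, 202 and 214 TPM in vehicle libraries. These TPM values overlap, while the scaled counts of 222, 213 and 219 CPM in frankincense libraries lay below the 247, 251 and 259 CPM of vehicle libraries, and TSPAN3 was called lower at -0.21 ± 0.053 (SE; edgeR adjusted p = 0.0028). TSPAN2 (ENSG00000134198, chromosome 1, 115048011 to 115089500), known from oligodendrocytes, had 2.53, 1.59 and 2.07 TPM in frankincense libraries against 3.26, 2.24 and 2.45 TPM in vehicle libraries. These TPM values overlap and the scaled counts do not. It was called lower at -0.50 ± 0.14 (SE; edgeR adjusted p = 0.0066) on 73 to 99 reads a library in frankincense cells and 113 to 125 in vehicle cells. TSPAN2 lost this call on log2(TPM + 1), both with and without mitochondrial genes.

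TSPAN6 and TSPAN12 did not pass the test. TSPAN6 (ENSG00000000003, chromosome X, 100627109 to 100639991), which acts in endosomal sorting, had 26.1, 25.2 and 28.3 TPM in frankincense libraries against 22.4, 20.2 and 24.5 TPM in vehicle libraries. Its scaled counts were nearly equal, with a log2 fold change of -0.0035 (95% interval -0.14 to 0.13), the narrowest interval among the uncalled members, and an edgeR adjusted p of 0.965. TSPAN12, the co-receptor that joins norrin and the receptor FZD4, had 2.15, 2.10 and 1.88 TPM in frankincense libraries against 1.72, 1.73 and 1.57 TPM in vehicle libraries and a log2 fold change of -0.083 (interval -0.46 to 0.30; edgeR adjusted p = 0.705). For both genes the TPM groups do not overlap and the scaled counts do. FZD4 fell by 1.44 ± 0.10 (SE; edgeR adjusted p = 1.5e-08), and the ligand gene NDP had 0 counts in all libraries. TSPAN1, of epithelial surfaces, and TSPAN18, of endothelium, stayed below the filter, with 5, 9 and 7 reads of TSPAN1 in frankincense libraries against 1, 3 and 2 in vehicle libraries, and 3, 5 and 4 reads of TSPAN18 in frankincense libraries against 5, 13 and 3 in vehicle libraries. TSPAN7, known from neurons, was the 1 member with 0 counts in all 6 libraries, which allows up to 0.109 to 0.133 CPM in a library.

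The leukocyte tetraspanins were near or below the detection limit. CD53, found on most white blood cells, had 0, 2 and 0 reads in frankincense libraries against 0, 1 and 0 in vehicle libraries, and TSPAN32, of blood cells, had 0, 2 and 0 reads in frankincense libraries against 1, 2 and 2 in vehicle libraries. CD37 (ENSG00000104894, chromosome 19, 49335171 to 49343335), a B-cell tetraspanin, had 8, 6 and 12 reads in frankincense libraries against 25, 26 and 16 in vehicle libraries, or 0.16, 0.15 and 0.25 TPM in frankincense libraries against 0.75, 0.67 and 0.39 TPM in vehicle libraries. The groups did not overlap, and CD37 was called lower at -1.35 ± 0.36 (SE; edgeR adjusted p = 0.0049), with the level the filter asks for reached in 3 vehicle libraries and 1 frankincense library. The change was -1.93 with a length offset and -0.43 on log2(TPM + 1). Of its exonic bases 7.67% lie opposite TEAD2, a gene that was lower by 0.48 ± 0.063. A further 3.17% are listed opposite a long noncoding RNA gene (ENSG00000197813). That gene averaged 0.903 TPM in frankincense cells and 2.58 TPM in vehicle cells, above CD37 in both. Without strand, reads of the shared stretches cannot be told apart, and the part of these 2 genes in the CD37 result was not tested. Leukocyte markers were sparse: CD3E, MS4A1 and HBB had 0 counts in all libraries, and PTPRC, the pan-leukocyte CD45, averaged 0.113 TPM in frankincense cells and 0.170 TPM in vehicle cells. Of the 3 tested, PTPRC and CD68 were not called and CD14, the monocyte co-receptor for endotoxin, was lower by 2.96 ± 0.28, with 0.413 TPM in frankincense cells and 2.53 TPM in vehicle cells. The summed level of the listed leukocyte markers was 35.4 to 64.0 TPM in frankincense libraries and 30.4 to 34.1 TPM in vehicle libraries, of which CD68, a lysosomal protein gene, held on average 46.2 TPM in frankincense cells and 29.2 TPM in vehicle cells. The part of such cells in the CD37 result was not tested.

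The remaining members were scarce. TSPAN11 had 15, 11 and 18 reads in frankincense libraries against 8, 9 and 8 in vehicle libraries, or 0.25, 0.15 and 0.24 TPM in frankincense libraries against 0.13, 0.12 and 0.19 TPM in vehicle libraries. Its log2 fold change was 0.82 (95% interval 0.057 to 1.58) with an edgeR adjusted p of 0.0578, and only its frankincense libraries reached the filter level. It was called higher without frankincense replicate 2 (adjusted p = 0.0489) and with library size scaling (adjusted p = 0.0406). TSPAN19 had 8, 9 and 11 reads in frankincense libraries against 9, 8 and 11 in vehicle libraries, and TSPAN16 had 0, 1 and 1 reads in frankincense libraries against 0, 0 and 0 in vehicle libraries. Thus 6 members had reads but too few for a test, namely TSPAN1, TSPAN16, TSPAN18, TSPAN19, TSPAN32 and CD53, and TSPAN7 had none.

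How many members counted as lower depended on the scale. In scaled counts 16 of the 22 tested members had groups that did not overlap, where 67.5% of all genes tested did so, and in TPM 12 of 22, where 65.2% of all genes did. Tested as log2(TPM + 1) with limma, 4 members were lower and 6 higher, beside 14.9% lower and 44.2% higher of all genes. That scale moved the median of all genes tested to 0.20 and that of the members to 0.080, so the members lay below the median of all genes on both scales. With mitochondrial genes left out before rescaling, 7 were lower and 3 higher, beside 22.7% and 30.9% of all genes, with medians of -0.098 for members and 0.053 for all genes. TSPAN8, TSPAN15, CD9 and CD37 were lower, and CD63, TSPAN31 and TSPAN13 higher, on all of these scales. CD37 had only 6 to 12 reads in a frankincense library and passed the filter through the vehicle group, where it is high. Its fall on these scales therefore carries less weight. TSPAN6 and TSPAN10 were called higher on log2(TPM + 1), at 0.24 and 0.24, and on log2(TPM + 0.1), at 0.25 and 0.26, and not on the count scale or without mitochondrial genes. CD151, TSPAN3, TSPAN4 and TSPAN14 turned to 0.071, 0.017, 0.085 and 0.18 on log2(TPM + 1), none of them called there, and CD81, CD82, TSPAN9 and TSPAN2 lost their call at -0.10, -0.28, -0.054 and -0.25.

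**Figure D4:**
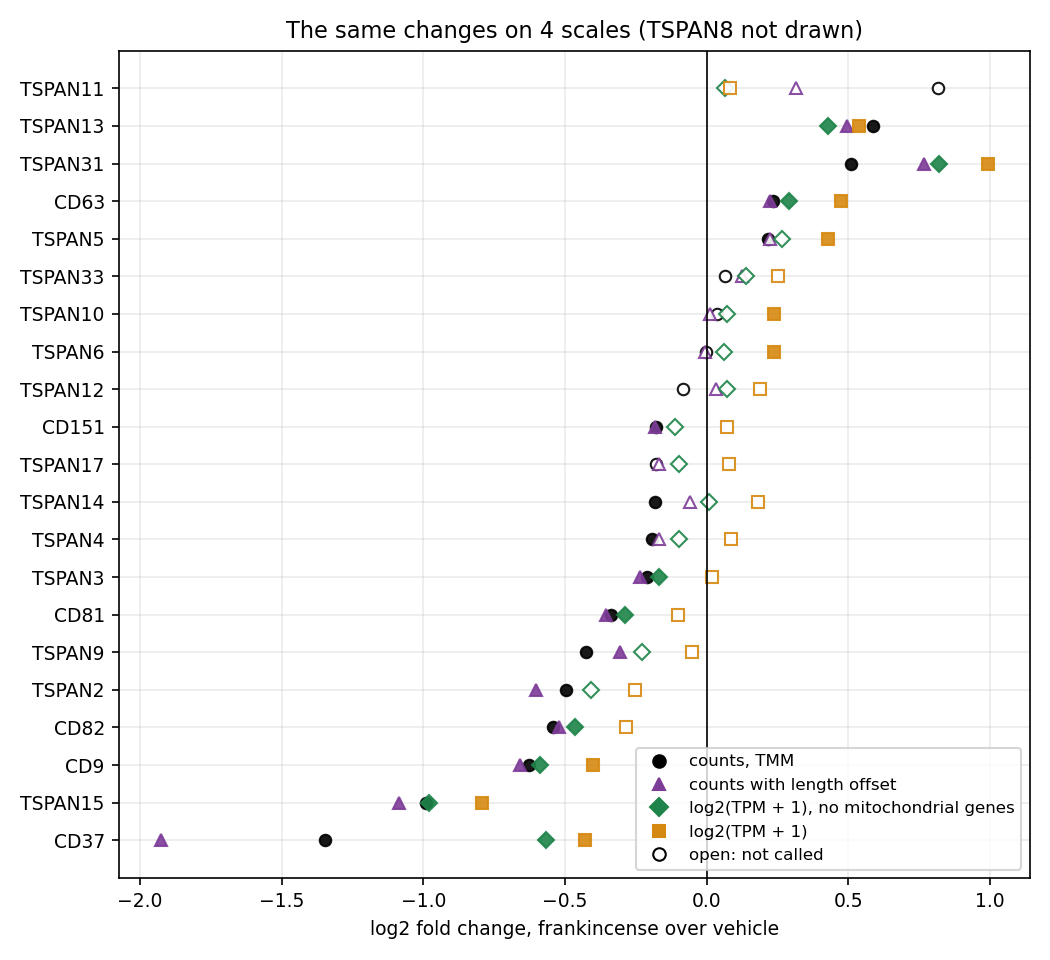
Log2 fold changes of 21 tested tetraspanins on 4 scales (counts with TMM, counts with an effective length offset, log2(TPM + 1) without mitochondrial genes, and log2(TPM + 1)); filled marks were called and open marks were not. The TPM marks lie to the right of the count marks for all genes drawn but TSPAN11 and TSPAN13, and TSPAN15, CD9 and CD37 stay filled on the left and TSPAN13, TSPAN31 and CD63 on the right. TSPAN8 lies outside the range drawn, and CD37 passed the filter on low counts through the vehicle group.

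Membrane partners of tetraspanins were lower in 16 and higher in 9 of 30 tested genes of a list of 36, with a median log2 fold change of -0.19, beside -0.18 for the tetraspanins, where all genes tested gave 31.0% lower and 31.9% higher. On log2(TPM + 1) 8 were lower and 11 higher, where 14.9% of all genes were lower and 44.2% higher. The integrin chains known to associate with CD151 went both ways, with ITGA3 and ITGA6, the laminin-binding alpha chains, higher by 0.18 ± 0.064 and 0.33 ± 0.096 on the log2 scale, and the beta chains ITGB1 and ITGB4 lower by 0.56 ± 0.069 and 0.79 ± 0.078. Of the partners of CD9 and CD81, IGSF8 was higher by 0.43 ± 0.094 and PTGFRN lower by 0.54 ± 0.079. The smallest adjusted p-values among falls were those of IFITM1, an interferon-induced membrane protein, at -1.20 ± 0.063, GPRC5A, an orphan receptor, at -1.05 ± 0.055, and FZD4. Among rises they were those of CLDN1, the tight junction claudin, at 3.06 ± 0.092, HBEGF, a growth factor precursor that binds CD9, at 0.93 ± 0.11, and PI4K2A, a lipid kinase, at 0.42 ± 0.074. CLDN1 averaged 21.0 TPM in frankincense cells and 2.09 TPM in vehicle cells.

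Genes of multivesicular bodies and exosomes, the compartment that CD63 marks, were higher in 14 and lower in 10 of 40 tested genes of 41, with a median of 0.077. All genes tested gave 31.9% higher and 31.0% lower, so both counts lie near the background. On log2(TPM + 1) 26 were higher and 4 lower, where 44.2% of all genes were higher and 14.9% lower, and without mitochondrial genes on that scale 16 were higher and 6 lower, where 30.9% and 22.7% of all genes were. VPS37A, a subunit of the ESCRT-I sorting complex, rose by 0.85 ± 0.056, SDCBP, the syntenin adaptor that couples CD63 to exosome formation, by 0.63 ± 0.058, and CHMP4A, an ESCRT-III subunit, by 0.54 ± 0.064. SDCBP averaged 431 TPM in frankincense cells and 234 TPM in vehicle cells. The small GTPases RAB31 and RAB27A, which act in vesicle formation and secretion, fell by 0.88 ± 0.061 and 0.60 ± 0.065, and FLOT2, a flotillin of membrane rafts, by 0.61 ± 0.052. Of the 4 tetraspanin relatives with other names, ROM1, a photoreceptor disc protein gene, was the 1 tested, and it fell by 1.25 ± 0.20 (SE; edgeR adjusted p = 6.9e-05) to 3.40 TPM, against 5.85 TPM in vehicle cells. UPK1B, a urothelial plaque protein gene, had 0 counts in all libraries.

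The members lie on 11 chromosomes. Chromosome 12 carries 7 members, of which 6 were tested, 3 being lower (TSPAN8, CD9 and TSPAN9) and 2 higher (CD63 and TSPAN31). Chromosome 11 carries 6, and the 4 tested ones, CD151, TSPAN4, CD81 and CD82, were all lower in the count test, where 31.0% of all genes tested were lower. CD151 and TSPAN4 lie 2.98 kb apart and CD81 and TSPAN32 58.0 kb apart. The chromosome 11 falls of CD151 and TSPAN4 turned positive on log2(TPM + 1). CD81 and CD82 lost their call there (limma adjusted p = 0.258 and 0.192), so none of these genes was called lower on that scale. After rescaling without mitochondrial genes CD81 and CD82 were called lower (limma adjusted p = 0.0078 and 0.0463), and CD151 and TSPAN4 were not called (0.185 and 0.338).

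Promoters were available for 21 of the 29 members, and the windows of the member with the largest fall, the one with the largest called rise and the most abundant one are shown so that the 3 can be compared. Each runs 5′ to 3′ on the gene's strand from 250 bases before to 50 after a RefSeq start site (GRCh38.p14); where there were several starts, the one nearest the 5′ end of the gene in GENCODE was used, which for TSPAN8 still lies well inside the long annotated gene. Capitals mark matches, on either strand, to the GC box GGGCGG and the CCAAT box. The windows are chr12:71157950-71158249 (minus strand), chr7:16753505-16753804 (plus strand) and chr12:55729624-55729923 (minus strand).
TSPAN8: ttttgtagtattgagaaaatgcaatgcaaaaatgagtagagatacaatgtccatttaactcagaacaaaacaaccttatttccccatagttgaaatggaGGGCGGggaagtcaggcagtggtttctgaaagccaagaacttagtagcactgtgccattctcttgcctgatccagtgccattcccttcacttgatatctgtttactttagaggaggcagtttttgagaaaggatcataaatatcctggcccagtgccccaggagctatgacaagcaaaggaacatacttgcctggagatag
TSPAN13: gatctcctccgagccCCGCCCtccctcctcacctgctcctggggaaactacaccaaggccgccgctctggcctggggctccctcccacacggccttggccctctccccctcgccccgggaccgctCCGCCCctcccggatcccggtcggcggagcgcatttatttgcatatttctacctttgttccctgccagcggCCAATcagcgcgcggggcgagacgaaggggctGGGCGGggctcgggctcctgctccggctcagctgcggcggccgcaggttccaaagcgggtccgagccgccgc
CD63: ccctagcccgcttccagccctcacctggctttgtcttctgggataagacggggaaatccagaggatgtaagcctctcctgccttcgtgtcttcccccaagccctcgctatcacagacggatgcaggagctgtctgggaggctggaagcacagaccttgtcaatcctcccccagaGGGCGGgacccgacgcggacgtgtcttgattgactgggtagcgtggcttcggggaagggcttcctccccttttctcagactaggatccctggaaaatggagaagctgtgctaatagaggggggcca
The TSPAN13 window is 71.3% G and C and holds 3 GC boxes and 1 CCAAT box. The TSPAN8 window is 42.3% G and C with 1 GC box, and the CD63 window 59.0% with 1 GC box, where the median of all 35116 windows in the table is 58.7%. A GC box was found in 12 of the 21 member windows and in 45.0% of all windows, and a CCAAT box in 8 of 21 and in 34.6% of all. The letters TATAAA occurred in 0 of 21 member windows and in 11.5% of all windows, and CACGTG in 1 of 21, that of TSPAN6, and in 7.26% of all. Each member entered with 1 window, while all windows in the table include several starts of some genes, 8 for CD63. The member shares and those of all windows are therefore over unlike sets. A match to such letters is a description of the window and not a site of binding.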

How the data were processed

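The mRNA of 12Z cells was sequenced in 3 frankincense and 3 vehicle libraries. The submitters' processing notes name the aligner STAR, the counter RSEM 1.3.1 and the build GRCh38, and the sources used here give no STAR version, annotation or read filter. The deposited files hold, per the file headers, the expected count of each gene from RSEM. They also hold deposited TPM values, which are relative to all transcripts of a library, and deposited FPKM values, which no result uses. The headers also give each gene's effective length in bases, a mean over its transcripts weighted by abundance. A symbol was found for 60419 of the 60616 gene IDs; coordinates, exons and gene types come from GENCODE 29 (GRCh38).

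The expected counts were rounded to whole numbers. The test was that of edgeR 4.0.16 (R 4.3.3), with filterByExpr (minimum count 10, here 0.411 CPM in 3 libraries), TMM scaling, a robust legacy glmQLFit, and a two-sided glmQLFTest with Benjamini-Hochberg adjustment over all genes kept. The SE is the absolute log2 fold change divided by the square root of F. The biological coefficient of variation was 6.42%. The script was tested on simulated data. Alternatives were other scalings, DESeq2 1.42.0, limma 3.58.1 on log2(TPM + 1) and log2(TPM + 0.1), limma-voom, a length offset, other filters, leaving out mitochondrial genes or each library, and a replicate block. Per-library values were to be given for members called at an absolute log2 fold change of at least 0.5, for the 8 most abundant, and for any whose call or direction changed in an alternative, which covers all 22 tested members. Of the partner lists, the 3 smallest adjusted p-values in each direction are named, with known partners. ADAM10, CDK4, POLR2L, TEAD2, the noncoding gene opposite CD37 and the named markers are given because a result turns on them. Members, lists and rules were chosen with earlier results of these data known. No protein sequences were used here.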

Additional observations from a re-analysis of the deposited data

How the results depend on the processing

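Each result was recomputed under up to 19 alternatives. Members called numbered 4 higher and 12 lower; leaving out 1 library at a time gave 3 to 5 higher and 10 to 13 lower, and for all genes 4740 to 5690 higher and 4637 to 5341 lower. Requiring 5 CPM in 3 libraries left 2 members higher, since TSPAN13 was then not tested and TSPAN5 lost its call. On log2(TPM + 1) and log2(TPM + 0.1), 4 members were lower in each, and 7 after rescaling without mitochondrial genes; all genes called lower numbered 2491 and 2490 on those TPM scales. Membrane partners called lower numbered 8, 8 and 10 on the same 3 scales, and exosome machinery 26 and 26 higher, and 4, 4 and 6 lower. Library size scaling gave 58.7% of calls higher and the TPM scale 74.8%, against 50.7%.

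Signs turned for small changes. On log2(TPM + 1) and log2(TPM + 0.1), CD151 was at 0.071 and 0.071, TSPAN3 at 0.017 and 0.017, TSPAN4 at 0.085 and 0.086, TSPAN14 at 0.18 and 0.19, TSPAN17 at 0.078 and 0.082, TSPAN12 at 0.19 and 0.27, and TSPAN6 at 0.24 and 0.25. After rescaling without mitochondrial genes, TSPAN14 was at 0.0063, TSPAN12 at 0.072 and TSPAN6 at 0.061. TSPAN6 also turned to 0.073 with library size scaling, 0.011 without a filter, 0.0033 in DESeq2, and 0.024, 0.00067 and 0.048 without frankincense replicate 2, frankincense replicate 3 or vehicle replicate 3. TSPAN10 turned to -0.0081 with upper-quartile scaling and -0.028 without frankincense replicate 1, TSPAN33 to -0.046 and -0.031 without frankincense or vehicle replicate 2, and TSPAN12 to 0.032 with a length offset and 0.057 without frankincense replicate 2. Leaving out 1 library at a time spanned -0.053 to 0.048 for TSPAN6, -0.028 to 0.12 for TSPAN10, -0.046 to 0.16 for TSPAN33 and -0.17 to 0.057 for TSPAN12. The cause was not tested.

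Same-numbered libraries deviated together at correlations of 0.092, 0.15 and 0.069, and 6 of 6 libraries correlated best with their own number. The deviations were taken from group means, so these matches depend on each other. Frankincense replicate 3 was at 0.069 with vehicle replicate 3 and at 0.052 with vehicle replicate 1. The labels give the number alone and do not say whether same-numbered libraries shared a culture or a batch. The replicate block gave 4 members higher and 12 lower, and 5347 and 5244 of all genes. With the block CD82 was at -0.55 ± 0.080 (SE, edgeR adjusted p = 1.9e-05), against an SE of 0.13 without it (adjusted p = 0.0051). Genes with few reads, such as CD37 and TSPAN11, are limited by depth.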
